A study of Mus musculus with 4 samples.

Results

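Cd24a, Sox4, Sox11, Nes, Lin28b, Bmi1 and Ezh2 are genes known from progenitor cells and from the chromatin machinery that keeps them undifferentiated. They were taken by symbol from the authors' table, and all 7 were present among its 17746 gene symbols. RNA had been sequenced from tumour cells of mice in which the tumour suppressor genes Rb1 and Trp53 are floxed (the RP model of small cell lung cancer, SCLC) and which carry the knock-in autophagy reporter GFP-LC3-RFP-LC3ΔG. Live (DAPI-negative) cells from dissociated lung tumours were sorted for EpCAM and RFP and then parted by GFP, which gave 2 GFP-negative and 2 GFP-positive libraries. All 4 libraries share the floxed alleles, the reporter and the EpCAM and RFP gates, and the labels give neither the Cre nor the age of the mice. Sample titles and series text disagree on which fraction has the high autophagic flux, so the fractions are called by GFP alone. No label says that the replicates of a fraction came from separate animals, and p-values then measure only the spread between these libraries, which may be technical.

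As background, CD24 is a small, heavily glycosylated protein held on the cell surface by a lipid anchor. SOX4 and SOX11 are closely related transcription factors of the SoxC group that act in neuronal and neuroendocrine precursors. Nestin is an intermediate filament protein of neural stem cells. LIN28B is an RNA-binding protein that blocks maturation of the let-7 family of microRNAs. BMI1 is a subunit of Polycomb repressive complex PRC1, which ubiquitinates histone H2A, and EZH2 is the enzyme of PRC2, which methylates histone H3, and both complexes keep developmental genes silent. In neuroendocrine lung tumours without functional RB, Ezh2 is known as a gene that E2F transcription factors switch on.

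The libraries held 69676412 to 73997175 counts in the GFP-negative and 51994432 to 67536465 in the GFP-positive group. GFP-positive replicate 1 stands apart: 6063 gene symbols had counts in it, against 15710 to 17617 in the other libraries. Levels below are CPM, counts scaled to library size with TMM factors. Where a group has a pair of values, replicate 1 stands before replicate 2. FPKM, which is scaled by gene length but not by the TMM factors, is used where levels of different genes are set side by side. Folds between libraries therefore differ between CPM and FPKM. Every change is a log2 change, GFP-negative minus GFP-positive, from edgeR's quasi-likelihood test over 16301 genes, with Benjamini-Hochberg adjustment over all of them.

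None of the 7 genes passed the test, at an adjusted or an unadjusted p under 0.05 (edgeR adjusted p = 1.0 for each). Over all genes 0.0982% were called, and 3.1% had an unadjusted p under 0.05. The calls over all genes were 0.00613% higher and 0.092% lower in the GFP-negative fraction. DESeq2's Wald test called 0 of the 7 as well, but it gave Nes and Lin28b no adjusted p, so these could not be called. Of all genes to which it gave an adjusted p, 0.46% were called. The fitted change was above 0 for 6 of the 7, as it was for 68.1% of all genes, and the median of the 7 was 2.09, against 0.91 for all genes. In GFP-positive replicate 1, 6 of the 7 genes had 5 counts or fewer and 3 had 0, as had 72.5% and 64.4% of all genes tested. Sox4, Sox11, Bmi1 and Ezh2 had their lowest level there, with no other library as low, as had 63.6% of all genes. Without that library the median of the 7 was 1.72 and that of all genes 0.29. Its absence left 0 of the 7 called, and so did that of GFP-negative replicate 1 or 2, against 0.00587%, 0.139% and 0.351% of all genes. Without GFP-positive replicate 2, Sox4, Sox11, Bmi1 and Ezh2 were called higher (edgeR adjusted p from 0.0111 to 0.0160), with 45.2% of all genes called. In bulk RNA, fewer cells that express a gene and less of its RNA per cell cannot be told apart.

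The genes do not share a single pattern over the libraries. Cd24a, Sox4, Sox11, Bmi1 and Ezh2 had their highest level in GFP-negative replicate 1, as had 36.3% of all genes. Lin28b was highest in GFP-negative replicate 2 and Nes in GFP-positive replicate 2. Both GFP-negative libraries lay above both GFP-positive libraries for Sox11, Lin28b and Ezh2, 3 of the 7, against 25.2% of all genes; 0 of the 7 had both GFP-negative libraries below both GFP-positive libraries, against 6.63%.

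**Figure D1:**
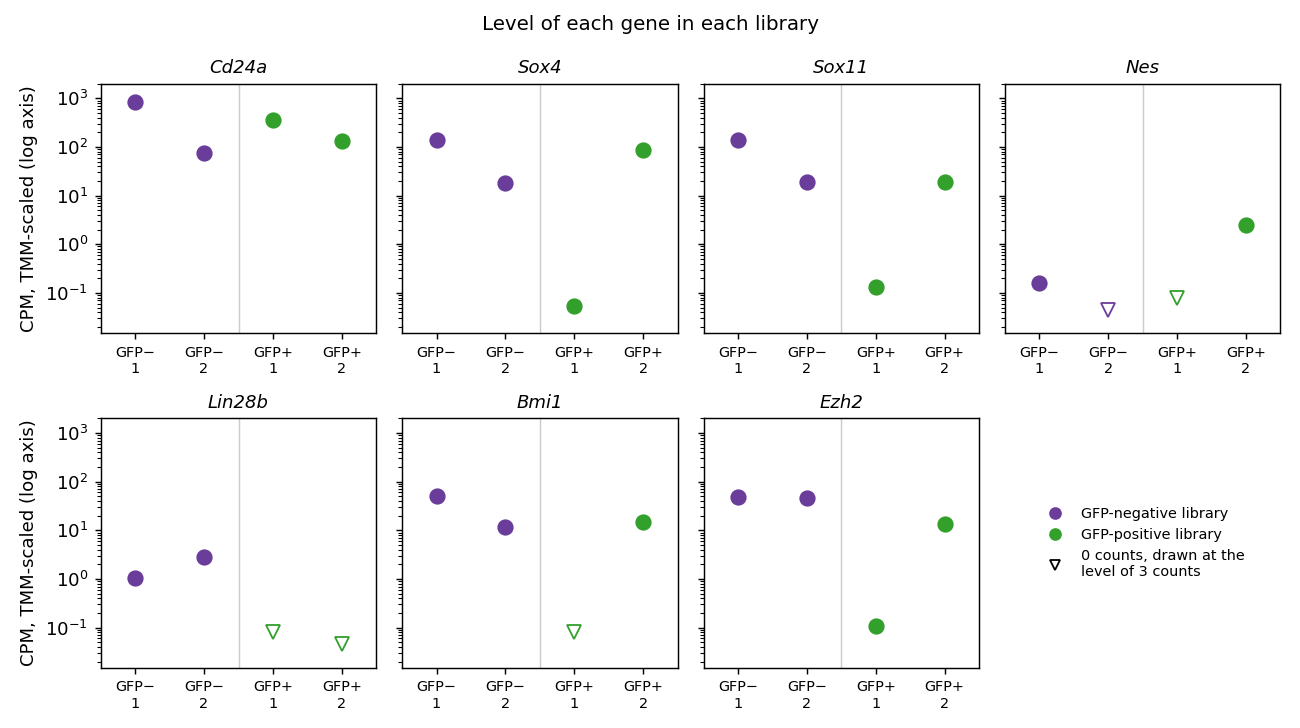
TMM-scaled CPM (log axis) of each of the 7 genes in the GFP-negative (purple) and GFP-positive (green) libraries; open triangles are libraries with 0 counts, drawn at the level of 3 counts. For Ezh2 the GFP-negative points, at 49.6 and 46.7 CPM, lie above both GFP-positive points, while Cd24a is the only gene of the 7 above 1 CPM in GFP-positive replicate 1.

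Cd24a, whose surface protein binds P-selectin and, in mice, Siglec-G, was by far the most abundant of the 7 genes per length. It had 429.7 and 24.8 FPKM in GFP-negative libraries and 91.1 and 42.4 FPKM in GFP-positive libraries. In each library it ranked first of the 7, and it stood between the 86.0th and the 99.5th percentile of the gene symbols with counts there. In CPM it had 820.2 and 76.8 in GFP-negative libraries, against 364 and 135 in GFP-positive libraries. The groups overlap completely: the GFP-negative pair holds both the highest and the lowest value, a 10.7-fold spread within the group. The log2 change was 0.85 ± 1.71 (SE; n = 2 libraries a group; edgeR adjusted p = 1.0). It was -1.70 without GFP-negative replicate 1 and -5.77 with upper quartile scaling. Cd24a lies on chromosome 10 (mm10) from 43578284 to 43584265.

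Set against Epcam, the gene of the sort marker, Cd24a was lowest in a GFP-negative library. The ratio of Cd24a to Epcam counts was 3.21 and 0.865 in the GFP-negative libraries and 3.87 and 2.05 in the GFP-positive libraries. Such a ratio within a library does not depend on how libraries are scaled. Its level is not per length, so it is read across libraries only. GFP-negative replicate 2 thus had the least Cd24a for its Epcam, below both GFP-positive libraries.

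Of 17 progenitor surface genes, 15 could be tested and 0 were called; 9 had a fitted change above 0 and 6 below, with a median of 0.85. Cd44, a hyaluronan receptor used as a stem cell marker in many tumours, had 11.9 and 13.0 CPM in GFP-negative libraries, against 353.8 and 40.0 CPM in GFP-positive libraries. Its log2 change was -3.99 ± 2.92 (edgeR adjusted p = 1.0). The fitted change of Cd24a had the opposite sign with all libraries, but the same sign without GFP-negative replicate 1. Kit, the receptor of stem cell factor, had 28.7 and 2.57 CPM in GFP-negative libraries, and 0 and 0.878 CPM in GFP-positive libraries. Itga6, an integrin chain of basal and progenitor cells, had 44.7 and 9.04 CPM in GFP-negative libraries, and 0 and 3.03 CPM in GFP-positive libraries. Kit and Itga6 had log2 changes of 5.14 ± 5.30 and 4.15 ± 4.94. Siglecg, which encodes the CD24 receptor of mouse B cells, was near its detection limit in 2 libraries, with 1.10 and 0.0601 CPM in GFP-negative and 0 and 3.78 CPM in GFP-positive libraries.

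Sox4 and Sox11 were at nearly the same CPM in the GFP-negative fraction and far apart in a GFP-positive library. Sox4 had 139.8 and 18.1 CPM in GFP-negative libraries, and 0.0533 and 86.8 CPM in GFP-positive libraries. Sox11 had 135.9 and 19.4 CPM in GFP-negative libraries, and 0.133 and 19.0 CPM in GFP-positive libraries. Sox4 in GFP-positive replicate 2 thus lay between the GFP-negative libraries, whereas Sox11 there was level with GFP-negative replicate 2. The values in GFP-positive replicate 1 are 2 counts of Sox4 and 5 of Sox11. Sox11's groups do not overlap, but by a margin that is not detectable at this depth: the 95% Poisson interval of GFP-negative replicate 2, 18.4 to 20.5 CPM, overlaps that of GFP-positive replicate 2, 17.99 to 20.2 CPM.

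The ratio of Sox4 to Sox11 counts was 1.03 (95% exact binomial interval 1.006 to 1.05) in GFP-negative replicate 1 and 0.930 (0.859 to 1.006) in replicate 2. In GFP-positive replicate 2 it was 4.56 (4.29 to 4.86), and GFP-positive replicate 1 had too few counts for a ratio. These intervals cover counting error only, and amplified reads are not independent molecules. Per length, Sox4 was the higher gene in the same 3 libraries, at 39.4 and 3.13 FPKM in the GFP-negative libraries and 14.7 FPKM in GFP-positive replicate 2. Sox11 had 22.1 and 1.94 FPKM in the GFP-negative libraries and 1.86 FPKM in GFP-positive replicate 2. A difference of the ratio between the fractions rests on a single GFP-positive library and was not tested.

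The log2 change was 0.86 ± 3.21 for Sox4 and 3.02 ± 3.89 for Sox11 (SE; n = 2 libraries a group; edgeR adjusted p = 1.0 for both). Without GFP-positive replicate 1 these were -0.15 and 2.02, so the sign for Sox4 rests on that library. Without GFP-negative replicate 1 they were -1.27 and 1.02, and without GFP-positive replicate 2 they were 10.49 and 9.17. Sox4 lies on chromosome 13 (mm10) from 28948919 to 28953713 and Sox11 on chromosome 12 from 27334264 to 27342574, both on the minus strand. The non-coding gene Gm26735 lies over 2753 bases of Sox4 on the opposite strand. The protocol names no step that marks strand, so reads of Sox4 and Gm26735 cannot be told apart.

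The promoters of the pair are shown to set them side by side; they run from 250 bases before to 50 bases after the RefSeq start site (GRCm38.p6, the assembly of mm10). Sox4 is at chr13:28953650-28953949 and Sox11 at chr12:27342669-27342968, both read from the minus strand. Capitals mark CCAAT boxes, searched as CCAAT on both strands, a motif found in 37.4% of 32851 mouse promoters of the same length.
Sox4: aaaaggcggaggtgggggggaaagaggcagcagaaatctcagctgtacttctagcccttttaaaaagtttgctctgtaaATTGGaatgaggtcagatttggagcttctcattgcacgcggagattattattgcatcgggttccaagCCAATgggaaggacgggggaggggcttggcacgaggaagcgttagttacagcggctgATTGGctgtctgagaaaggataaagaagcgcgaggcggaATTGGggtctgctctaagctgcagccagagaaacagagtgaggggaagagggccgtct
Sox11: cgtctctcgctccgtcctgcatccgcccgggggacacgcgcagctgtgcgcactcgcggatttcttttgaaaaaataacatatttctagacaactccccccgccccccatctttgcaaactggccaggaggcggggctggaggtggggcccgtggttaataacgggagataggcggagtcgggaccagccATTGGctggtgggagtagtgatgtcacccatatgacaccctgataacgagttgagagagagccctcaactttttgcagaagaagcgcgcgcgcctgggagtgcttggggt
Sox4 holds 4 such boxes and Sox11 holds 1, and neither holds a match to the other motifs searched below.

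Lists of related genes, of which 6 of 11 hold 1 or more of the 7 genes, were examined as well; unadjusted p-values under 0.05 occurred in 2 of these 11 lists, for 1 SOX gene and 1 of the other stemness factors. Of the 20 SOX family genes 8 were tested, and edgeR called 0. All 8 had a fitted change above 0, with a median of 0.86, near the 0.91 of all genes; without GFP-positive replicate 1 the median was -0.14. Sox6, a SoxD factor of neural and cartilage precursors, had 5.67 and 8.10 CPM in GFP-negative libraries, and 0 and 4.49 CPM in GFP-positive libraries. Sox2, a pluripotency factor amplified in some human SCLC, had 14.0 and 10.6 CPM in GFP-negative libraries, and 0 and 13.5 CPM in GFP-positive libraries. The SOX gene with an unadjusted p under 0.05 was Sox17, an endoderm and endothelial factor, with 15 and 33 counts in GFP-negative libraries and 0 in both GFP-positive libraries (edgeR adjusted p = 1.0). Outside GFP-positive replicate 1, Sox2 was thus at about the same level in both fractions.

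Of 10 genes that SOX4 and SOX11 are known to bind or switch on in neurons and tumours, 0 were called, 8 lay above 0 and the median was 1.96. Tubb3, a neuronal tubulin, had 68.4 and 54.3 CPM in GFP-negative libraries, and 0.0800 and 17.02 CPM in GFP-positive libraries. Dcx, the microtubule protein doublecortin of migrating neurons, had 21.1 and 7.94 CPM in GFP-negative libraries, and 0 and 2.34 CPM in GFP-positive libraries. For both genes the groups did not overlap, with log2 changes of 2.84 ± 4.10 and 3.63 ± 4.94. Stmn1, a microtubule-destabilising protein of dividing and neural cells, had 1889 and 7372 CPM in GFP-negative libraries, against 1303 and 3956 CPM in GFP-positive libraries, so its groups overlap.

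Nes was barely detected. It had 18 and 0 counts in GFP-negative libraries and 0 and 161 counts in GFP-positive libraries, or 0.159 and 0 CPM against 0 and 2.53 CPM. At 0 counts, a limit of 3 counts equals 0.0451 CPM in the GFP-negative and 0.0800 CPM in the GFP-positive library concerned, for counting error only. GFP-positive replicate 2 thus held most of the nestin reads, and the groups overlap at their low ends. The log2 change was -3.95 ± 3.64 (edgeR adjusted p = 1.0). Nes is found on chromosome 3 (mm10), bases 87971078 to 87980451.

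Of the 11 genes of nestin and its filament partners, Nes included, 9 were tested and 0 called; 7 fitted changes lay above 0, and the median was 1.03. Ina, the filament protein alpha-internexin of neurons, had 98.6 and 17.6 CPM in GFP-negative libraries, and 0 and 41.6 CPM in GFP-positive libraries. Syne2, a large protein that links the nucleus to the cytoskeleton, had 81.0 and 21.9 CPM in GFP-negative libraries, and 0.107 and 21.0 CPM in GFP-positive libraries. Vim, the vimentin gene of mesenchymal cells and macrophages and a filament partner of nestin, had 17.03 and 41.5 CPM in GFP-negative libraries, against 581.3 and 124 CPM in GFP-positive libraries. Its groups did not overlap, and its log2 change was -3.59 ± 2.27 (edgeR adjusted p = 1.0); Nes and Vim were the 2 genes of the list below 0.

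Lin28b had reads in the GFP-negative fraction alone. There were 120 and 185 counts in the GFP-negative libraries and 0 in both GFP-positive libraries. This is 1.06 and 2.78 CPM in the GFP-negative libraries, with 95% Poisson intervals of 0.877 to 1.26 and 2.39 to 3.21 CPM. The limit of 3 counts is 0.0800 and 0.0471 CPM in the GFP-positive libraries. Against that limit, averaged over the group, the mean was at least 30.2-fold higher in the GFP-negative libraries. The level was low per length, at 0.156 and 0.254 FPKM, or the 9.35th and the 17.6th percentile of gene symbols with counts.

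This pattern is not rare in the table: 5.45% of all genes tested had counts in both GFP-negative libraries and 0 counts in both GFP-positive libraries. The edgeR test gave Lin28b an unadjusted p of 0.0529 and an adjusted p of 1.0 (n = 2 per group). DESeq2's Wald test gave an unadjusted p of 0.00409 and no adjusted p. The gene lies on chromosome 10 (mm10) from 45376620 to 45486395. GFP-positive replicate 2, where 16379 gene symbols had counts, thus gives a limit at this depth and not a level of 0.

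The LIN28 and let-7 list held 21 symbols, of which 12 were tested, 0 were called and 9 lay above 0, with a median of 2.15. Lin28a, the paralogue of Lin28b, and the textbook let-7 targets Hmga2 and Igf2bp1 are not analysed here. Dgcr8, the RNA-binding subunit of the Microprocessor that cuts primary microRNAs, had 17.5 and 4.33 CPM in GFP-negative libraries and 0 counts in both GFP-positive libraries. This is at least 172-fold higher in the GFP-negative mean; edgeR gave an adjusted p of 1.0 and DESeq2's Wald test one of 0.0499, its only call in the 11 lists. Xpo5, which exports precursor microRNAs from the nucleus, had 27.2 and 3.74 CPM in GFP-negative libraries, and 0.0533 and 3.07 CPM in GFP-positive libraries. Plagl2, a zinc-finger factor, had 11.7 and 0.766 CPM in GFP-negative libraries, and 0 and 0.910 CPM in GFP-positive libraries. The microRNAs themselves were not measured.

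Bmi1 had 52.0 and 11.9 CPM in GFP-negative libraries, and 0 and 14.998 CPM in GFP-positive libraries. GFP-negative replicate 1 was 4.36-fold above replicate 2, and GFP-positive replicate 2 lay between them, so the groups overlap. Its log2 change of 2.09 ± 4.41 had an edgeR adjusted p of 1.0. With GFP-positive replicate 1 left out it was 1.08, with GFP-positive replicate 2 left out 14.18, and with GFP-negative replicate 1 left out 0.67. Per length, Bmi1 had 17.7 and 2.49 FPKM in the GFP-negative libraries and 3.05 FPKM in GFP-positive replicate 2. It lies on chromosome 2 (mm10) from 18677018 to 18686629.

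Rnf2, the ubiquitin ligase with which BMI1 forms the core of PRC1, kept a nearly fixed proportion to Bmi1. The ratio of Bmi1 to Rnf2 counts was 0.670 (95% exact binomial interval 0.648 to 0.692) and 0.612 (0.559 to 0.669) in the GFP-negative libraries. In GFP-positive replicate 2 it was 0.639 (0.589 to 0.694), and GFP-positive replicate 1 had 0 counts of both genes. The 3 intervals overlap, while the levels of Bmi1 in the same libraries span 4.36-fold. This pair and the other ratios given here were chosen after the levels had been seen. An even proportion to Bmi1 is not particular to Rnf2. Among 5196 genes compared with Bmi1 below, the nearest profiles were those of Eif4b, Mpp3 and Impad1, none of them on the PRC1 list.

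Of 23 PRC1 subunits, all tested, 0 were called; 19 lay above 0 and 4 below, with a median of 1.78, and 18 had 0 counts in GFP-positive replicate 1. Without that library the median was 0.78. Phc2, a polyhomeotic subunit, had the lowest change of the list, with 14.3 and 7.40 CPM in GFP-negative libraries, against 194.8 and 60.0 CPM in GFP-positive libraries. Its paralogue Phc1 had 27.6 and 8.05 CPM in GFP-negative libraries, and 0 and 4.11 CPM in GFP-positive libraries. The groups overlap for neither gene, and the log2 changes were -3.55 ± 3.36 for Phc2 and 3.11 ± 4.79 for Phc1 (edgeR adjusted p = 1.0 for both). Scmh1, a Polycomb protein that associates with PRC1, had 23.1 and 0 CPM in GFP-negative libraries, and 0 and 2.67 CPM in GFP-positive libraries.

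Loci that Polycomb keeps silent gave few values: 3 of 10 were tested. Cdkn2a, the Ink4a and Arf locus that BMI1 is best known to repress, had 2.74 and 3.93 CPM in GFP-negative libraries, and 0 and 4.09 CPM in GFP-positive libraries. Cdkn2b, its neighbour that encodes p15, had 13.8 and 10.3 CPM in GFP-negative libraries, and 0.107 and 6.34 CPM in GFP-positive libraries. None of the 3 was called, all 3 lay above 0 and their median was 1.03.

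By TMM-scaled CPM, Ezh2 was the gene of the 7 whose GFP-negative libraries agreed best. This depends on the scaling: in FPKM these libraries had 10.02 and 5.80 for Ezh2, and 0.156 and 0.254 for Lin28b. Ezh2 had 49.6 and 46.7 CPM in GFP-negative libraries, a mean of 48.1 ± 2.02 CPM (SD, n = 2). In GFP-positive libraries it had 0.107 and 13.4 CPM, a mean of 6.73 ± 9.36 CPM (SD, n = 2). Both GFP-negative libraries lay above both GFP-positive libraries, by 3.71-fold and 3.499-fold against GFP-positive replicate 2 alone. The other GFP-positive value is 4 counts. The log2 change of 2.84 ± 4.33 had an edgeR adjusted p of 1.0. It was 2.79 when GFP-negative replicate 1 was left out, 2.87 when GFP-negative replicate 2 was, 1.84 when GFP-positive replicate 1 was and 8.79 when GFP-positive replicate 2 was. All tested genes with counts in both libraries of a pair had medians of 0.05 and -0.04 (log2) for GFP-negative replicates 1 and 2 against GFP-positive replicate 2, where Ezh2 had 1.89 and 1.81.

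Ezh2 lies on chromosome 6 (mm10) from 47530139 to 47595341, on the minus strand. The non-coding gene Gm26625 and the pseudogene Gm44282 lie within it on the opposite strand and are not in the table. Without strand, their reads cannot be told from those of Ezh2.

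**Figure D2:**
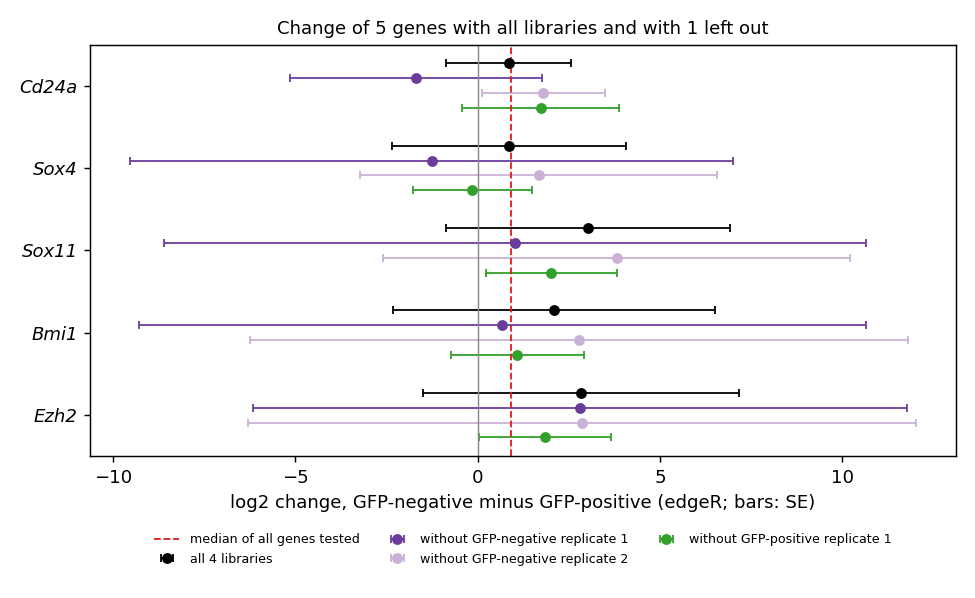
Log2 change, GFP-negative minus GFP-positive, of 5 genes from edgeR with all 4 libraries and with 1 library left out (points; bars are SE); the dashed line is the median of all genes tested with all 4 libraries. Without GFP-positive replicate 2, which is not drawn, all 5 are higher except Cd24a at 0.30, with Ezh2 at 8.79. In the settings drawn Ezh2 lies between 1.84 and 2.87, while Cd24a and Sox4 turn negative without GFP-negative replicate 1, and Sox4 also without GFP-positive replicate 1. Nes and Lin28b are not drawn.

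The promoters of Ezh2, Bmi1 and Lin28b are shown for the motifs by which E2F and MYC family factors are known to bind. The windows are chr6:47594981-47595280 on the minus strand for Ezh2, chr2:18676768-18677067 on the plus strand for Bmi1 and chr10:45470152-45470451 on the minus strand for Lin28b (RefSeq, GRCm38.p6). The RefSeq start used for Lin28b lies inside the GENCODE locus given above, downstream of the start of that locus. Capitals mark CCAAT boxes as above, E2F motifs (TTTCCCGC, TTTCGCGC, TTTGCCGC or TTTGGCGC, both strands) and the E-box CACGTG, which reads the same on both strands; no marked motifs overlap.
Ezh2: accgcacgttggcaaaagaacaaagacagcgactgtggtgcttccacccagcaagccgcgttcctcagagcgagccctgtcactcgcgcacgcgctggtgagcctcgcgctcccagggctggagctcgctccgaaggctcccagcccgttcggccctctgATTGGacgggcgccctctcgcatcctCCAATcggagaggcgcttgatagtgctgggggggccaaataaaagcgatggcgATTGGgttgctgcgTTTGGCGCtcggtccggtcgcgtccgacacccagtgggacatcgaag
Bmi1: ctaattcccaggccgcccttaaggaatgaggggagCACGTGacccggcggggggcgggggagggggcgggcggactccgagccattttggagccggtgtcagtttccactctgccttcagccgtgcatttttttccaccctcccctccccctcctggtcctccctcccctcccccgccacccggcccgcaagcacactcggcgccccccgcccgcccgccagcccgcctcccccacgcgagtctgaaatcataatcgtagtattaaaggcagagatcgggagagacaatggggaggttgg
Lin28b: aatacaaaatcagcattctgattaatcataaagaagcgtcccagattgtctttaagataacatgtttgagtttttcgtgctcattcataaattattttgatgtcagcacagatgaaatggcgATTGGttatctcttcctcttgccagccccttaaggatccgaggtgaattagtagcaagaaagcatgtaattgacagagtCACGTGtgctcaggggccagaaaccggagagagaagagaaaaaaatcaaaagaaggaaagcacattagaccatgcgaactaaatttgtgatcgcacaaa
Ezh2 holds 3 CCAAT boxes and an E2F motif 4 to 11 bases past the start site, and 2.26% of the 32851 promoters hold an E2F motif of these letters. Bmi1 and Lin28b hold an E-box each, which 7.15% of promoters hold, and Lin28b also holds 1 CCAAT box. The Nes promoter held none of these motifs, and Cd24a had no entry. A match describes the letters in this window and is not a bound site.

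EZH2 works with EED and SUZ12 in the core of PRC2. Suz12 had 11.2 and 9.60 CPM in GFP-negative libraries, and 0 and 2.04 CPM in GFP-positive libraries. Eed had 70.8 and 86.2 CPM in GFP-negative libraries, and 0 and 55.6 CPM in GFP-positive libraries. For each of the 3 core genes the GFP-negative libraries lay above the GFP-positive libraries, and their proportions were not fixed. The ratio of Ezh2 to Eed counts was 0.700 and 0.542 in the GFP-negative libraries and 0.240 (95% exact binomial interval 0.223 to 0.259) in GFP-positive replicate 2. That of Ezh2 to Suz12 counts was 4.43 and 4.87 in the GFP-negative libraries and 6.55 (5.44 to 7.94) in GFP-positive replicate 2, the opposite direction. Ezh1, the paralogue of Ezh2 that prevails in resting cells, had 19.6 and 4.61 CPM in GFP-negative libraries, and 0 and 3.81 CPM in GFP-positive libraries. The ratio of Ezh2 to Ezh1 counts was 2.53 and 10.1 in the GFP-negative libraries and 3.502 in GFP-positive replicate 2.

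Of 12 genes of PRC2 and its accessory subunits, all tested, 0 were called; 10 lay above 0 and 2 below, with a median of 1.78 and of 0.90 without GFP-positive replicate 1. In 6 of the 12 the groups had no overlap, each higher in the GFP-negative fraction, against 25.2% of all genes, 4 of 23 PRC1 genes and 7 of the 12 genes that oppose Polycomb, described below. Rbbp4, a histone chaperone shared with other complexes, had 210.2 and 29.0 CPM in GFP-negative libraries, and 0.133 and 45.5 CPM in GFP-positive libraries. Rbbp7, its paralogue, was the only gene of the list with many counts in GFP-positive replicate 1, at 575 and 369.7 CPM in GFP-negative libraries and 202.5 and 284 CPM in GFP-positive libraries.

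The ratio of Ezh2 to Bmi1 counts set 1 library apart from the rest. It was 0.953 and 3.92 in the GFP-negative libraries and 0.890 in GFP-positive replicate 2. Per length, Ezh2 had 10.02 and 5.80 FPKM in the GFP-negative libraries and 1.61 FPKM in GFP-positive replicate 2. Ezh2 thus ranked second of the 7 genes in GFP-negative replicate 2 and was the fifth in GFP-negative replicate 1 and GFP-positive replicate 2.

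**Figure D3:**
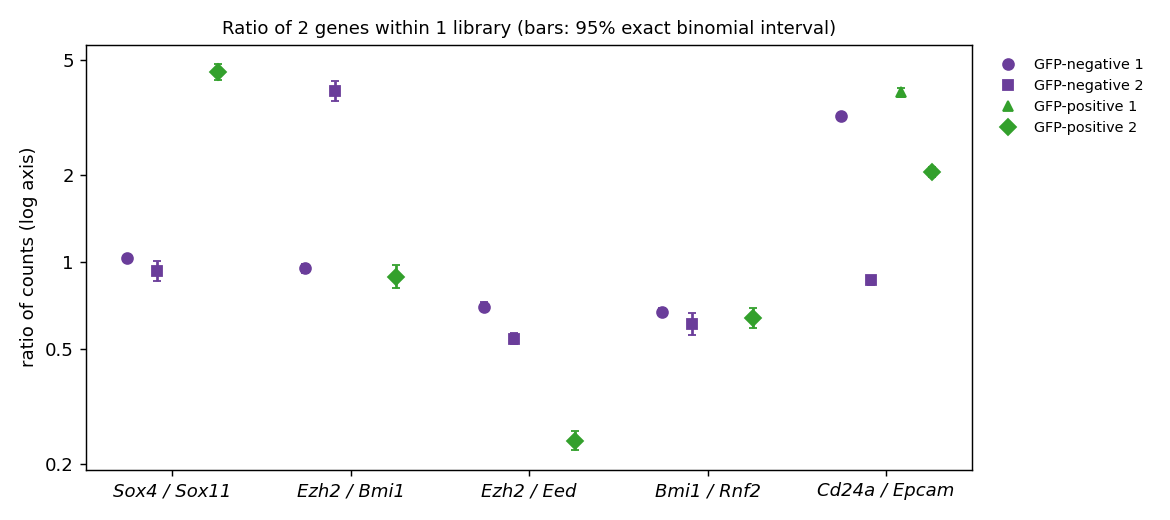
Ratio of the counts of 2 genes within a library (log axis) with 95% exact binomial intervals, for GFP-negative (purple) and GFP-positive (green) replicates 1 and 2; GFP-positive replicate 1 is drawn for Cd24a to Epcam alone. Bmi1 to Rnf2 lies between 0.612 and 0.670 in 3 libraries, whereas Sox4 to Sox11 is 4.56 in GFP-positive replicate 2 and near 1 in both GFP-negative libraries.

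**Figure D4:**
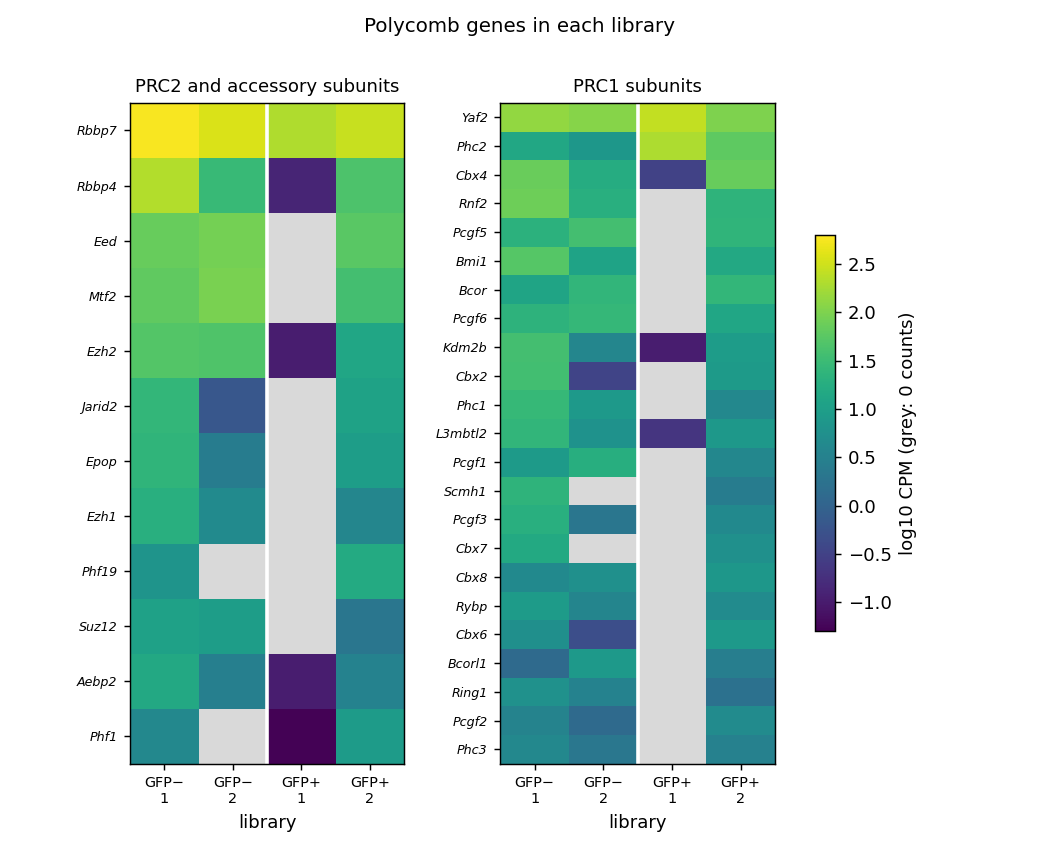
Heat map of log10 CPM of 12 PRC2 and 23 PRC1 genes (rows, by mean level) in the 2 GFP-negative and 2 GFP-positive libraries (columns); grey is 0 counts. GFP-positive replicate 1 is grey for 7 of the PRC2 and 18 of the PRC1 genes, and Phc2 is brighter in the GFP-positive libraries.

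Of 12 genes whose products oppose Polycomb or remove its marks, 0 were called, 9 lay above 0 and the median was 2.16. Kmt2d, a histone methyltransferase of enhancers, had 7.91 and 23.6 CPM in GFP-negative libraries, and 0 and 0.675 CPM in GFP-positive libraries. Asxl2, a partner of the deubiquitinase BAP1, had 15.9 and 12.5 CPM in GFP-negative libraries, and 0 and 3.39 CPM in GFP-positive libraries. Bap1 itself, which removes the mark that PRC1 places, had 64.2 and 14.5 CPM in GFP-negative libraries, and 0.213 and 11.2 CPM in GFP-positive libraries. Their log2 changes were 5.53 ± 5.40, 3.06 ± 4.81 and 2.78 ± 4.45. Genes on either side of Polycomb repression thus both had medians above that of all genes, and none passed the test.

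Proliferation genes, many of them E2F targets like Ezh2, had 21 of 22 fitted changes above 0, with 0 called, a median of 1.93 and one of 1.013 without GFP-positive replicate 1. Mki67, which encodes the Ki-67 protein of cycling cells, had 60.5 and 41.7 CPM in GFP-negative libraries, and 0.107 and 19.8 CPM in GFP-positive libraries. The ratio of Ezh2 to Mki67 counts was 0.820 and 1.12 in the GFP-negative libraries and 0.675 in GFP-positive replicate 2. Mcm2 and Mcm6, subunits of the replicative helicase, did not share the even GFP-negative CPM of Ezh2. Mcm2 had 611.1 and 42.1 CPM in GFP-negative libraries, and 0.506 and 80.5 CPM in GFP-positive libraries. Mcm6 had 538.5 and 94.7 CPM in GFP-negative libraries, and 0.107 and 103.2 CPM in GFP-positive libraries.

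A list of 17 other stemness factors had 14 tested genes, with a median of 1.22. It held 1 call, the MYC family gene Mycl, with 1477 and 0.766 CPM in GFP-negative libraries, and 0.640 and 0.659 CPM in GFP-positive libraries. A single GFP-negative library thus held nearly all its reads. The log2 change was 10.15 ± 2.46 (edgeR adjusted p = 0.0412; DESeq2's Wald test 0.0522), and it was 0.24 when GFP-negative replicate 1 was left out. Mycn, the family member of neural tumours, had 41.9 and 6.41 CPM in GFP-negative libraries, and 0 and 11.9 CPM in GFP-positive libraries, and is named here after its values were seen.

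For each of the 7 genes, the 3 genes of most similar profile were sought among those tested with counts in the same libraries and a mean of 5 CPM or more. Similarity is the root mean square difference of mean-centred log2(CPM + 1) over the 4 libraries, so 0 is an identical shape. Nearest to Ezh2 among 4621 candidates were Baz1b (0.10), Knstrn (0.11) and G2e3 (0.16). Nearest to Bmi1 among 5196 candidates were Eif4b and Mpp3 (0.05 each) and Impad1 (0.07). Sox11 was closest to Khdrbs1 (0.06), Crk (0.11) and Twsg1 (0.13), and Sox4 to Slc2a1 (0.09), Ptpa and Btg2 (0.24 each). Cd24a was closest to Tmco3 (0.16), Eif4g1 (0.17) and Stat3 (0.20). The 2 faint genes lie below the 5 CPM limit set on candidates, so no close match was possible for them. Lin28b had 52 candidates and a best distance of 1.02 (Gm15706), and Nes had 164 and 1.03 (Grap2). Khdrbs1, for example, had 128 and 17.1 CPM in GFP-negative libraries, and 0.107 and 18.8 CPM in GFP-positive libraries, nearly the values of Sox11. No test was made of these distances, which rest on 4 libraries.

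Markers of the cells a sort could hold moved between the libraries too. Neuroendocrine markers, 12 of 12 tested, summed to 5362 and 2149 CPM in GFP-negative libraries and 3951 and 1354 CPM in GFP-positive libraries. The 7 epithelial markers, none at 0 in any library, summed to 2841 and 795.3 CPM in GFP-negative libraries and 1328 and 465.7 CPM in GFP-positive libraries. In GFP-positive replicate 1, however, Cdh1 and Cldn3 had 4 counts each. Most of the epithelial sum there came from Krt8 and Krt18, at 539.8 and 368.9 CPM. Of both lists 0 genes were called, and Chga, Chgb and Dll3, neuroendocrine markers, had 0 counts in GFP-positive replicate 1. Both sums, like Cd24a, were highest in GFP-negative replicate 1 and next in GFP-positive replicate 1, but lowest in GFP-positive replicate 2, where Cd24a was not.

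Macrophage markers, 11 of 12 tested and 3 of them called lower, summed to 1057 and 15583 CPM in GFP-negative libraries and 110550 and 46086 CPM in GFP-positive libraries. The 6 erythroid genes, 2 of them called lower, summed to 1573 and 5395 CPM in GFP-negative libraries and 45563 and 14336 CPM in GFP-positive libraries. Of 4 hepatocyte genes tested, 3 were called lower. The sums were 23.5 and 318.7 CPM in GFP-negative libraries and 27262 and 158.5 CPM in GFP-positive libraries. Outside GFP-positive replicate 1 these sums were nearly all Ttr, with 23.0 and 318.1 CPM in GFP-negative libraries and 154.6 CPM in GFP-positive replicate 2. The median log2 change of the 4 was -14.50, and -1.38 without GFP-positive replicate 1. B cell markers, which matter for Cd24a and Siglecg because B cells express both, summed to 2934 and 20115 CPM in GFP-negative libraries and 1890 and 6584 CPM in GFP-positive libraries, mostly as Igkc. Neutrophil, T cell and fibroblast markers each summed to at most 194.1 CPM in any library, while 5 endothelial markers reached 396.3 CPM in GFP-positive replicate 1 through Pecam1. Alveolar type 2 markers summed to 99.2 and 2498 CPM in GFP-negative libraries and 147.3 and 269.1 CPM in GFP-positive libraries, and club and ciliated cell markers to 383.4 and 2643 CPM in GFP-negative libraries and 3991 and 2431 CPM in GFP-positive libraries; 0 genes of these lists and of the B cell list were called. The part of other cell types in the levels of the 7 genes was not tested.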

How the data were processed

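RNA from 2 GFP-negative and 2 GFP-positive sorted fractions was analysed. Per the labels' protocols, picogram amounts of RNA were reverse transcribed with oligo(dT) priming and template switching (SMARTer), amplified by PCR and sequenced in pairs. The protocols name no molecular identifiers, and intervals cover counting error only. The authors deposited whole-number counts per gene symbol and FPKM values (per the file headers); in 99.2% to 99.5% of 3062 genes with 100 or more counts in all libraries, counts and FPKM of different libraries stood in the same proportion within 1%. StringTie 2.1.6, HISAT2 2.2.1, cutadapt 1.9, edgeR, DESeq2 and the build mm10 are named in the submitters' processing notes; the sources used here do not say which of these made the counts, or with which annotation.

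Counts were fitted in edgeR 4.0.16 (R 4.3.3; filterByExpr, minimum count 10; TMM factors of 1.54 and 0.956 in GFP-negative and 0.722 and 0.944 in GFP-positive libraries) with the group as the only term, on all genes. The SE is the absolute change divided by the square root of F. The threshold was an adjusted p of 0.05. DESeq2 1.42.0 and limma 3.58.1 were alternatives. Scripts were checked on simulated counts with less spread between libraries than these data have, so the check does not show which changes could be called here. The 7 genes, the 11 gene lists and 12 marker lists, and the alternatives were chosen with earlier results of these data known. Named from each list are its called genes or, if none, the 3 with the smallest p at a group mean of 5 CPM or more; Siglecg, Sox17, Sox2, Cdkn2a, Mycn, Mki67, Eed, Ezh1, Rnf2 and Rbbp7 were added after their values were seen. Positions are from GENCODE M21 (mm10) and promoters from RefSeq, which held 6 of the 7 genes. Some marker genes are not reported here by name.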

Additional observations from a re-analysis of the deposited data

How the results depend on the processing

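Against 16 calls over all genes, other settings gave 5 among genes with counts in all 4 libraries, 0 with upper quartile factors, 61 with DESeq2's Wald test, 4 with limma-voom and 42 with limma on log2(FPKM + 0.1); leaving out a library gave 1 to 7601, the most without GFP-positive replicate 2, where the lone library is assumed to vary like the other group. The 7 genes had 0 calls in every setting but that last, where Sox4, Sox11, Bmi1 and Ezh2 were called higher against GFP-positive replicate 1 alone, so that leaving out a library gave 0 to 4. Of the genes of the pathway lists, 1 was called; 0 were with the replicate block, upper quartile factors, limma-voom or FPKM with pseudocounts of 0.1, 1 or 5, and 0 to 88 with a library left out.

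The change of Cd24a was -5.77 with upper quartile factors, under which the upper quartile of GFP-positive replicate 1 rested on 10 counts; that of Stmn1 was -4.07 there and -0.61 in limma-voom. With a library left out, changes ran from -1.70 to 1.80 for Cd24a, -1.27 to 10.49 for Sox4, 1.02 to 9.17 for Sox11, 0.67 to 14.18 for Bmi1, 1.84 to 8.79 for Ezh2, 9.26 to 10.29 for Lin28b, -9.15 to 5.58 for Nes, -0.25 to 15.04 for Ina, -9.22 to 12.71 for Scmh1 and -0.46 to 1.83 for Stmn1; the cause was not tested. The median of all genes was 1.12 with DESeq2 size factors, 0.43 with upper quartile factors, 1.33 with library totals, 3.92 with the replicate block, 3.81 with limma-voom and -0.06 among genes with counts in all 4 libraries. The replicate block called 21 genes and 0 of the 7; same-numbered libraries had deviations correlated at 0.03 over genes, and the labels do not say that a number marks a shared animal. The wide spread between libraries, a common biological coefficient of variation of 1.92, limits what 2 against 2 can call.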
